A study of Mus musculus with 18 samples.

Results

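The genes described here are 10 mouse genes that encode chaperones, folding enzymes and stress-response factors of the endoplasmic reticulum (ER): Hspa5, Hsp90b1, Dnajb9, Sdf2l1, Pdia4, Pdia6, Creld2, Herpud1, Kdelr3 and Xbp1. They were taken by symbol from the annotation of the array and are 10 of the 18194 genes that the array names, with 19 probe sets between them. Each of the 18 samples was hybridised to its own Affymetrix array, and the deposited values are log2 levels of RNA. All cells were male 129SV EBRTcH3 embryonic stem cells (ESCs) or derivatives of them, grown with LIF and serum unless named as 2i, which is medium that blocks the kinases MEK and GSK3. LY294002, an inhibitor of PI3K, was given to parental ESCs and to lines that overexpress c-Myc, either the wild form or T58A, a form with a changed phosphorylation site. Parental serum replicate 1 had an untreated and a day 5 sample, and parental ESCs in 2i had the same pair. Parental serum replicate 2, the wild-type c-Myc line and the c-Myc T58A line each had an untreated, a day 2 and a day 5 sample. Doxycycline (Dox), which ablates expression of Max, the partner of Myc, was given to Max-null ESCs (untreated, day 4 and day 6) and to Max-null ESCs that overexpress p110 alpha, the catalytic subunit of PI3K (untreated and Dox, with no day given). In all, 11 treated samples were set against the 7 untreated samples that their descriptions name, and each derivative line is a single line with 1 sample per condition. For the T58A line, the reference sample's description speaks of N-Myc overexpression, whereas the titles and genotype labels say c-Myc(T58A).

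Secreted and membrane proteins fold in the ER, where the HSP70-type chaperone BiP, the product of Hspa5, binds unfolded chains. When unfolded protein accumulates, the sensors IRE1, ATF6 and PERK start the unfolded protein response: IRE1 splices Xbp1 mRNA so that it encodes an active transcription factor, ATF6 is cut to release another, and PERK slows translation and favours ATF4. These factors act on short promoter elements, among them the ER stress response elements bound by ATF6 with NF-Y, and raise chaperones, disulfide isomerases and degradation factors. An array reports total mRNA of a gene, so a level of Xbp1 here includes spliced and unspliced forms.

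Promoter stretches are shown for the members whose windows hold elements of this response or a Myc-Max site. Each window ran from 250 bases before to 50 bases after the transcription start in RefSeq on GRCm38.p6, all 10 members were matched, and both strands were searched. ERSE, the ER stress response element, which is CCAAT, any 9 bases and CCACG, was found in 39 of 32851 windows (0.119%) and in the windows of 4 members. ERSE-II, which is ATTGG, any 1 base and CCACG, was in 12 windows (0.0365%) and in that of Herpud1. The core TGACGTG of the unfolded protein response element was in 661 windows (2.01%) and in those of Hspa5 and Kdelr3. The C/EBP-ATF response element TGATGCAA, a form of the site that ATF4 binds, was in 294 windows (0.895%) and in that of Herpud1. The E-box CACGTG, the site of Myc-Max dimers among other factors, was in 2349 windows (7.15%) and in that of Dnajb9. No match overlapped another, and the windows of Sdf2l1, Pdia4 and Xbp1 held none of these letters. A match describes the letters and does not show binding. In the following stretches capitals mark the matches, and all run 5′ to 3′ in the direction of the gene.
Hspa5 (chr2:34771918-34772058, plus strand; TGACGTG, then ERSE from -65 to -47): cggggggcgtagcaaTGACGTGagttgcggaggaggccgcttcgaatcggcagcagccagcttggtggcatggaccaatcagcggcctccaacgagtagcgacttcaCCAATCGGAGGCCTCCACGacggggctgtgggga
Hsp90b1 (chr10:86705518-86705671, minus strand; ERSE, then ERSE reversed): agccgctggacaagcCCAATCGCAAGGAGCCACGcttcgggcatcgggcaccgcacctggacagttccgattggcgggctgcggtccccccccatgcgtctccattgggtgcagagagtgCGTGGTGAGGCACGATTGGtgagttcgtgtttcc
Pdia6 (chr12:17266476-17266524, plus strand; ERSE): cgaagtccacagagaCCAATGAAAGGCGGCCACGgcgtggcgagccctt
Creld2 (chr15:88819505-88819553, plus strand; ERSE reversed): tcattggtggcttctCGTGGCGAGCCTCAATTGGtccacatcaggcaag
Herpud1 (chr8:94386302-94386402, plus strand; C/EBP-ATF element reversed, then ERSE-II): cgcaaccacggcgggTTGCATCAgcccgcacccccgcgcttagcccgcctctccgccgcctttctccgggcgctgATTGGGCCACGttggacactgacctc
Kdelr3 (chr15:79516364-79516400, plus strand; TGACGTG reversed): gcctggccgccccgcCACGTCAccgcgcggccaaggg
Dnajb9 (chr12:44210155-44210190, minus strand; E-box): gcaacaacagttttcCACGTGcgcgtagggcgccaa

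**Figure D1:**
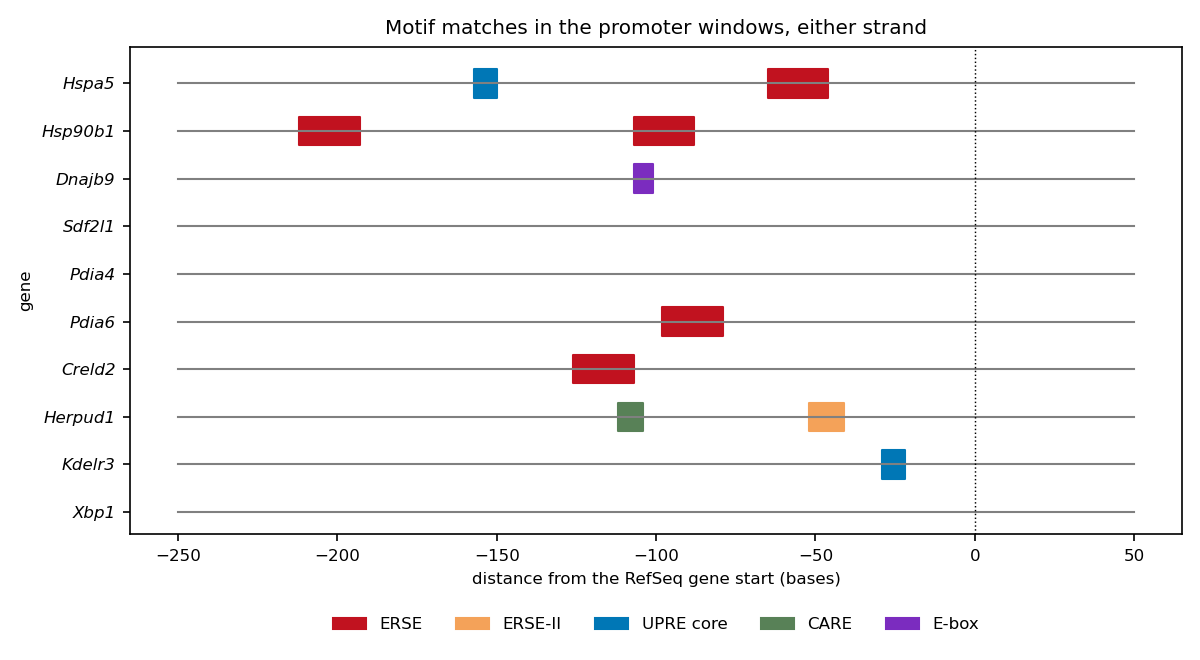
Positions of the promoter elements in the windows of the 10 members, in bases from the transcription start; each coloured box is a match on either strand and each row is a gene. Every match lies upstream of the start, and Sdf2l1, Pdia4 and Xbp1 have none.

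Some facts of the arrays touch the results. Array medians were 5.03 to 5.05 for parental replicate 1 and 2i and 5.31 to 5.52 for the remaining 14 arrays, and the former were written with more digits, so they appear to be 2 separate normalizations and levels were not compared across them. All 10 pluripotency markers looked up were above 4.64, the 40th percentile of the table and the level used here as a floor, in all 18 samples. Max read 8.21 to 8.65 in the arrays of parental replicate 2 and 8.40 to 8.71 in those of the c-Myc lines. It read 7.09 in untreated Max-null ESCs, 6.89 at day 4 and 7.18 at day 6 of Dox. In the p110 alpha line Max read 6.70 and 6.33 without and with Dox. Its level in Max-null ESCs was thus not lower at day 6 than untreated, and whether the probes lie in the ablated part is not stated. Myc read 6.99 to 9.60 in the 6 arrays of the c-Myc lines and 7.43 to 9.60 in the 3 of parental replicate 2. Pik3ca, the gene for p110 alpha, read 8.82 and 8.27 in the p110 alpha line without and with Dox and 8.50, 7.39 and 7.24 in Max-null ESCs untreated, at day 4 and at day 6. The Myc ranges pool untreated and treated samples and overlap, and Myc was not compared between lines at the same condition. Whether the probes detect the introduced cDNAs is not stated, and the c-Myc and p110 alpha lines are named by their labels. The 2 Max-null Dox arrays also stood apart in RNA quality: the log2 difference between the 3′ and 5′ probe sets of Gapdh was 0.295 and 0.412, against 0.140 to 0.192 on the other 12 arrays of their set. These are bulk samples, so fewer cells of a type and less RNA per cell cannot be told apart, and precision is limited by how few arrays each group has. The labels do not say that samples came from separate cultures, so the p-values below measure only the spread between these samples.

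The members did not move as 1 block. In the 3 lines sampled at both days, LY294002 lowered Kdelr3 and, by day 5, Herpud1 several-fold. In the same lines Hspa5, Hsp90b1, Pdia6 and Creld2 fell by 0.37 to 0.45 on the log2 scale at day 2. At day 5 Herpud1 changed by -0.24 in parental replicate 1 and by 0.23 in 2i, and Kdelr3 by -1.41 and -0.72. Under Dox in Max-null ESCs, Kdelr3 and Herpud1 were lower than untreated and Hspa5, Hsp90b1, Dnajb9 and Creld2 higher, and in p110 alpha Max-null ESCs 0 members moved 2-fold. Of the 110 changes of a member in a treated sample against its own untreated sample, 17 were at least 2-fold lower and 2 at least 2-fold higher. At LY294002 day 2, 3 members were 2-fold lower in parental replicate 2, 1 in wild-type c-Myc and 1 in T58A ESCs, where 2.71%, 2.24% and 1.32% of genes were. At day 5 these counts were 3, 2 and 2, where 4.05%, 3.32% and 2.98% of genes were 2-fold lower, and they were 1 in parental replicate 1 (3.09% of genes) and 0 in 2i (2.23%). Under Dox, 1 and 3 members were 2-fold lower at days 4 and 6 in Max-null ESCs (8.71% and 15.6% of genes) and 0 in the p110 alpha line (0.445%).

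**Figure D2:**
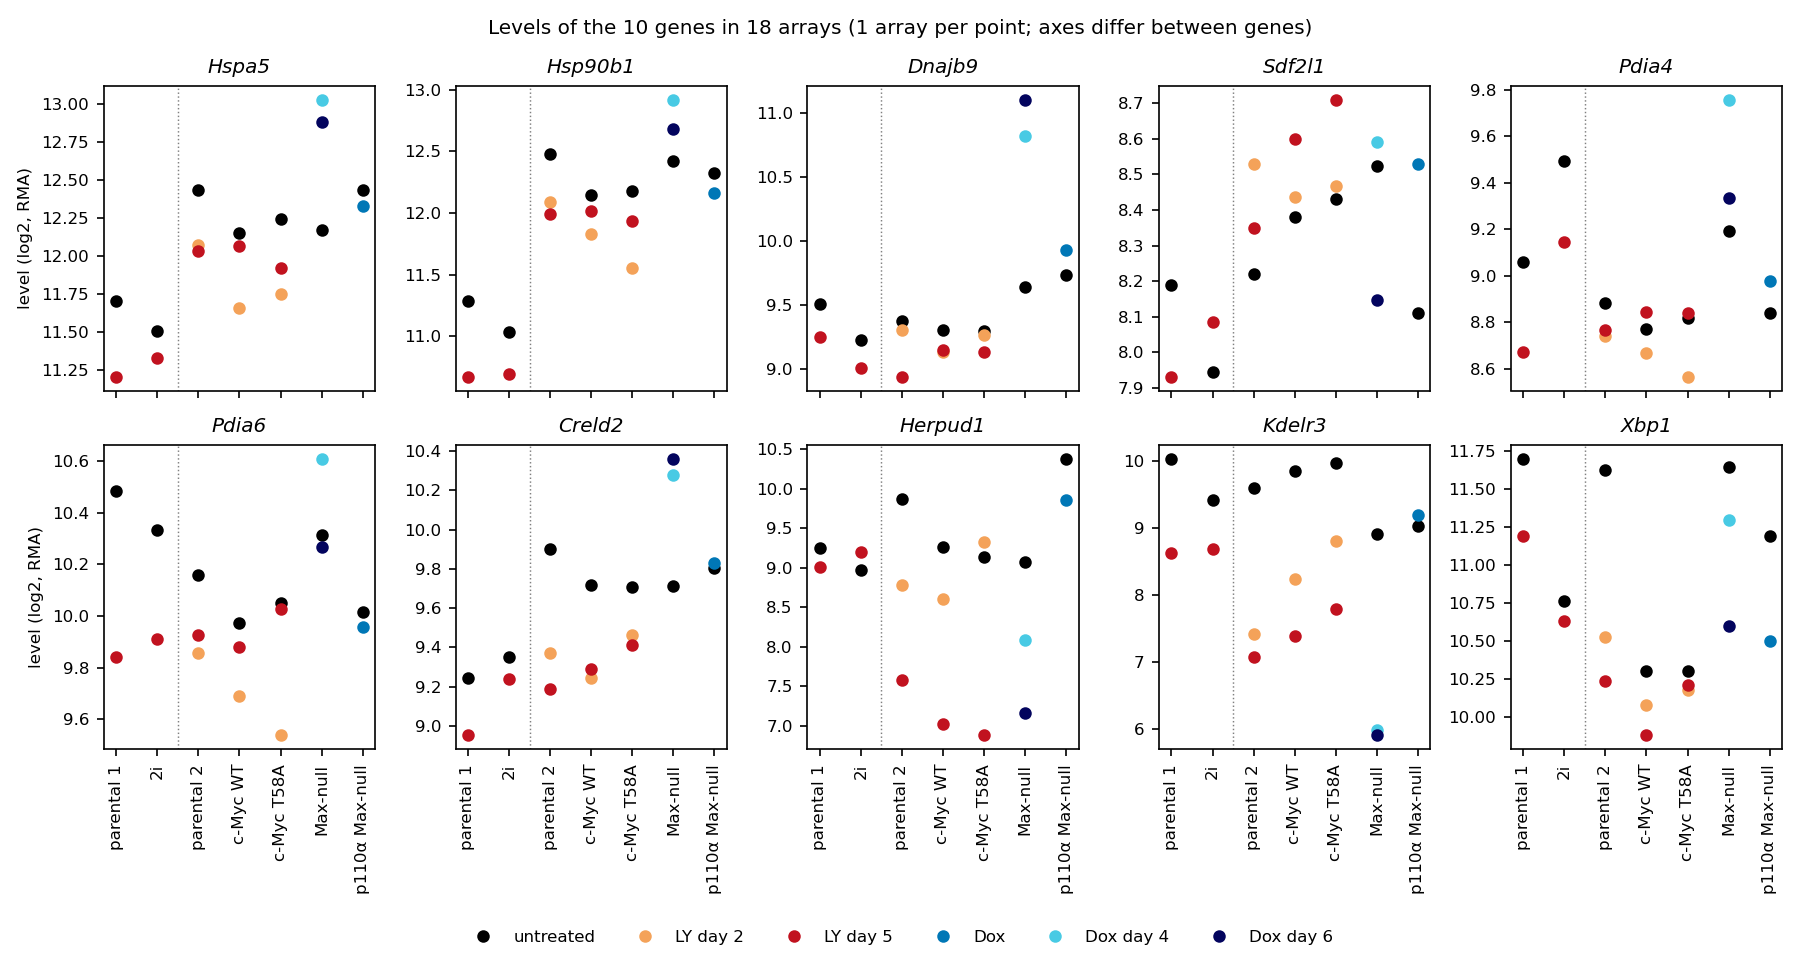
Log2 level of each member in all 18 samples, 1 panel per gene, 1 point per sample, with the line on the horizontal axis and the treatment by colour; vertical axes differ between genes, and a dotted line parts the 2 sets of arrays. Over the 14 arrays right of that line, Kdelr3 lies between 5.91 and 9.96 and Herpud1 between 6.88 and 10.38, the widest spreads among the members, while Sdf2l1 stays between 8.11 and 8.71.

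**Figure D3:**
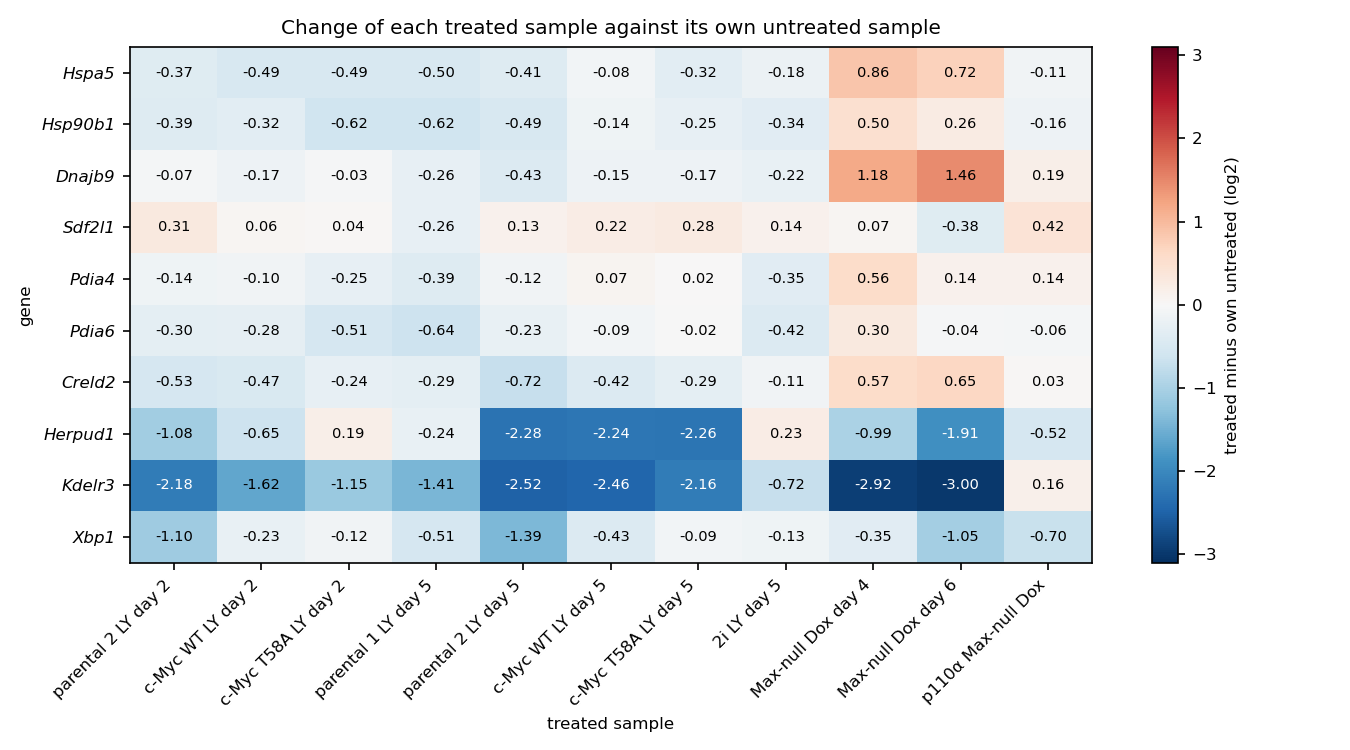
Change of each member in each of the 11 treated samples against its own untreated sample, as a grid of genes by treated samples, with colour and printed value in log2 units. The Kdelr3 changes reach -3.00 at Dox day 6 in Max-null ESCs, and the Dnajb9 changes of 1.18 and 1.46 in Max-null ESCs are the 2 rises past 2-fold.

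LY294002 was tested with limma in 9 samples (parental replicate 2, wild-type c-Myc and T58A at 3 time points), with the line as a block and adjusted p-values over 13421 genes. At day 2, 5 of the 10 members passed at an adjusted p under 0.05 and all 5 were lower, where 12.3% of all genes tested were lower and 30.5% passed in either direction. The median change of the members was -0.43 on the log2 scale and that of all genes 0.04. At day 5, 3 of 10 passed, again all lower, where 18.5% of all genes were lower. Hspa5, Hsp90b1, Dnajb9 and Xbp1 lay just past the threshold at day 5 (limma adjusted p = 0.0514 to 0.0555), so this count depends on the cutoff. At an unadjusted p under 0.05 there were 5 members at day 2 and 7 at day 5, against 5714 and 6916 of all 13421 genes. The members' median at day 5 was -0.28 and that of all genes 0.05. Both days were compared with the same untreated arrays. Markers of other cell types moved both ways at day 5. The summed log2 level of 9 trophoblast markers went from 51.0 to 60.1 in parental replicate 2, from 50.48 to 57.99 in wild-type c-Myc and from 51.7 to 55.9 in T58A ESCs. Elf5 and Gata3 were below the floor, as was Krt7 except in wild-type c-Myc at day 5, and 6 or 7 of 9 were above it. This sum went from 52.2 to 51.1 in parental replicate 1 and from 58.5 to 55.5 in 2i. That of 6 neuroectoderm markers fell in the same 3 lines, from 41.5 to 37.2, from 40.8 to 37.5 and from 40.1 to 36.9. The neuroectoderm sum rose from 37.55 to 38.79 in parental replicate 1 and from 31.39 to 34.03 in 2i. Sums of endoderm and fibroblast markers rose in parental replicate 2 (60.5 to 63.6 and 42.5 to 46.8) and changed less in the c-Myc lines. The sum of the 10 pluripotency markers went from 120.6 to 116.2 in parental replicate 2, from 119.9 to 117.5 in wild-type c-Myc and from 119.3 to 118.0 in T58A ESCs. The part of these shifts in the members' changes was not tested. Between the days, 1.12% of genes were lower at day 5 than at day 2, and 1 member was, Herpud1.

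Fewer members passed at day 2 when a c-Myc line was left out, as did fewer of all genes. Without the wild-type c-Myc line only Kdelr3 passed at day 2, where 7.61% of all genes passed, against 30.5% with all lines. Without the T58A line Kdelr3, Creld2 and Herpud1 passed, where 23.6% did. The estimates without wild-type and without T58A were -0.43 and -0.43 for Hspa5, -0.51 and -0.35 for Hsp90b1, and -0.41 and -0.29 for Pdia6. In the fit to which the Max-null lines were added, 0 members passed at day 2 with limma (4099 of all genes passed in the 9-sample fit, 842 in this one). The day 5 count stayed at 3, where 5922 of all genes passed in the 9-sample fit and 2514 in this one.

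Parental replicate 1 entered only the test of day 5 in 8 serum samples, which blocks on the pair and leaves 2 residual degrees of freedom. For the 2 parental pairs 0.53% of 13405 genes passed and 0 members did. At an unadjusted p under 0.05 there were 7 members, against 2927 of all 13405 genes. In the c-Myc lines 1.53% of genes were lower, and 1 member was, Kdelr3. The difference between c-Myc and parental ESCs passed for 0 of 13405 genes in limma's test, with 457 at an unadjusted p under 0.05 and 0 of those a member, so no member was shown to respond differently with c-Myc. The estimates stayed wide: that of Xbp1 was 0.69 ± 0.35 (SE) and that of Herpud1 -0.99 ± 0.69. Leaving out a parental replicate left a single parental pair, whose spread the fit cannot measure, so only its changes are given. Kdelr3 was at -2.52 without replicate 1 and at -1.41 without replicate 2, and Herpud1 at -2.28 and -0.24. Leaving out a c-Myc line left a single c-Myc pair in the same way. Kdelr3 was then at -2.16 without wild-type and at -2.46 without T58A, and its c-Myc call could not be repeated in 1 line.

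**Figure D4:**
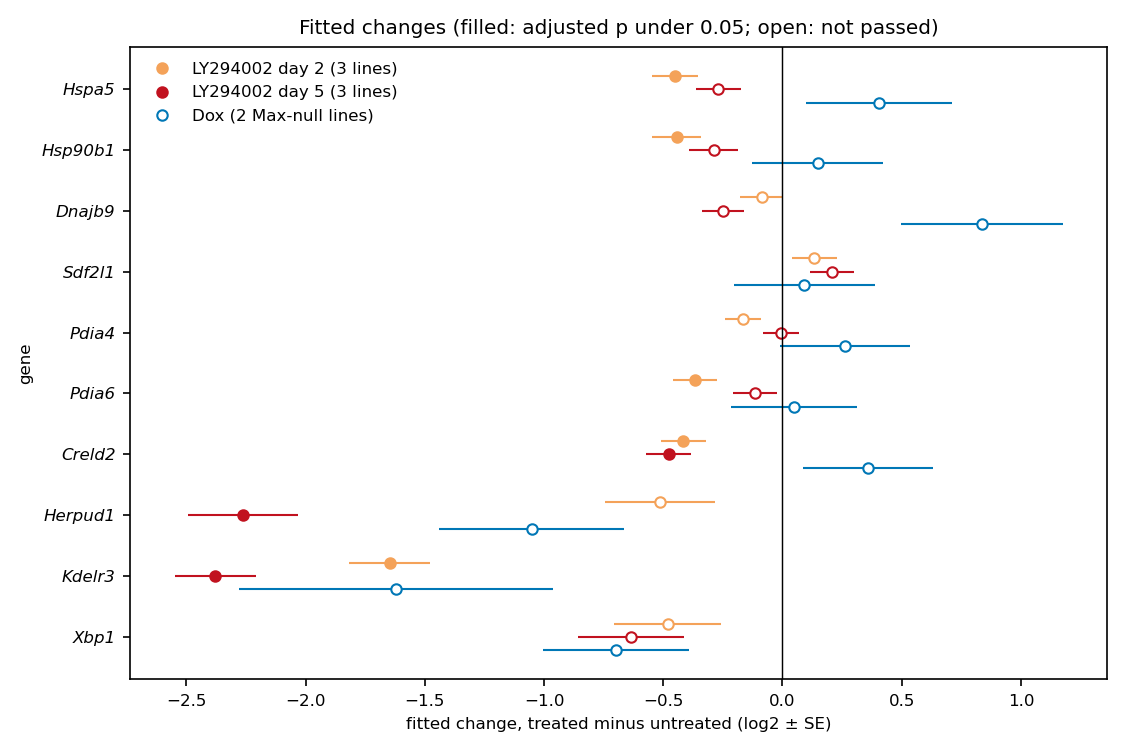
Fitted log2 changes of the 10 members with their standard errors for LY294002 at day 2 and day 5 (3 lines, 9 samples) and for Dox (2 Max-null lines, 5 samples); filled points passed at an adjusted p under 0.05. Filled points lie at -0.45 for Hspa5 at day 2 and at -2.38 for Kdelr3 and -2.26 for Herpud1 at day 5, and every Dox point is open.

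Hspa5 encodes BiP, the main HSP70 chaperone of the ER and the regulator that holds the stress sensors inactive. Its untreated levels were 12.44 in parental replicate 2, 12.15 in wild-type c-Myc and 12.24 in T58A ESCs. At day 2 of LY294002 the same lines read 12.07, 11.66 and 11.75, and at day 5 they read 12.03, 12.07 and 11.92. All 6 treated samples lay below all 3 untreated samples. Hspa5 fell by 0.45 at day 2 (log2 change -0.45 ± 0.09, SE, n = 3 lines; limma adjusted p = 0.0110) and the day 5 change of -0.27 ± 0.09 did not pass (adjusted p = 0.0515). In the other set of arrays Hspa5 went from 11.70 to 11.20 in parental replicate 1 and from 11.51 to 11.33 in 2i, so it was lower in 8 of 8 LY294002 samples, with changes from -0.50 to -0.08.

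Hsp90b1 encodes GRP94, the HSP90 chaperone of the ER. It read 12.48, 12.15 and 12.18 in untreated parental replicate 2, wild-type c-Myc and T58A ESCs, 12.09, 11.83 and 11.56 at day 2 and 11.99, 12.01 and 11.93 at day 5. Here too every treated sample lay below every untreated one. The change was -0.44 ± 0.10 at day 2 (adjusted p = 0.0165) and -0.29 ± 0.10 at day 5 (adjusted p = 0.0555). Parental replicate 1 went from 11.29 to 10.67 and 2i from 11.03 to 10.69. A second probe set of Hsp90b1 was lower in the same 8 samples, with changes from -0.42 to -1.18, and passed 2-fold at day 2 in both c-Myc lines.

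Under Dox both chaperone genes were higher in Max-null ESCs and not in the p110 alpha line. Hspa5 went from 12.17 to 13.03 at day 4 and 12.89 at day 6 in Max-null ESCs and from 12.44 to 12.33 in p110 alpha Max-null ESCs. Hsp90b1 went from 12.42 to 12.92 and 12.68 in the former and from 12.32 to 12.16 in the latter. The 2 Max-null Dox samples had the highest Hspa5 and Hsp90b1 levels of the 14 arrays of their set.

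Dnajb9, an ER cochaperone of BiP also called ERdj4, did not pass at either day of LY294002. Its untreated levels were 9.37, 9.30 and 9.29 in parental replicate 2, wild-type c-Myc and T58A ESCs, and the day 5 levels were 8.94, 9.15 and 9.13. All 3 were lower at day 5, with a change of -0.25 ± 0.09 that did not pass (adjusted p = 0.0547). In Max-null ESCs Dnajb9 went from 9.64 to 10.82 at Dox day 4 and 11.10 at day 6, which is 2.26-fold and 2.75-fold higher, where 5.19% and 8.91% of genes were 2-fold higher. In p110 alpha Max-null ESCs it went from 9.74 to 9.93. Both Max-null Dox levels lay above the 9.93 of the p110 alpha line under Dox, the next highest of the 14 arrays of their set.

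Sdf2l1, whose product is an ER partner of the cochaperone Dnajb11, was higher in 7 of 8 LY294002 samples, by 0.04 to 0.31, and changed by -0.26 in parental replicate 1. With quantile normalization the T58A day 2 change was -0.03 in place of 0.04. The fitted changes of 0.13 ± 0.09 at day 2 and 0.21 ± 0.09 at day 5 did not pass (adjusted p = 0.324 and 0.110). Its largest rise was 0.42, in p110 alpha Max-null ESCs under Dox.

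Of the disulfide isomerases, which form and rearrange disulfide bonds in folding proteins, Pdia6 fell at day 2 and Pdia4 did not pass at either day. Pdia6 read 10.16, 9.97 and 10.05 in the untreated lines, 9.86, 9.69 and 9.54 at day 2 and 9.93, 9.88 and 10.03 at day 5. The day 2 samples lay below all untreated samples and the day 5 samples overlapped them. Pdia6 fell by 0.37 at day 2 (-0.37 ± 0.09, adjusted p = 0.0215), and the day 5 change of -0.12 ± 0.09 did not pass (adjusted p = 0.350). The day 2 call was lost with the mean of both Pdia6 probe sets (adjusted p = 0.0552) and with the more variable one (adjusted p = 0.159). Pdia4 had changes of -0.17 ± 0.08 and -0.01 ± 0.08 (adjusted p = 0.143 and 0.951). In parental replicate 1 at day 5, Pdia6 went from 10.48 to 9.84 and Pdia4 from 9.06 to 8.67, and in 2i they went from 10.33 to 9.91 and from 9.49 to 9.15.

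Creld2, which encodes an ER-resident protein induced by ER stress, fell at both days. It read 9.90, 9.72 and 9.71 untreated, 9.37, 9.24 and 9.46 at day 2 and 9.19, 9.29 and 9.41 at day 5. Every treated sample lay below every untreated one. The change was -0.42 ± 0.09 at day 2 (limma adjusted p = 0.0150) and -0.48 ± 0.09 at day 5 (adjusted p = 0.00530), and the day 5 call was lost without the wild-type c-Myc line (adjusted p = 0.0536). In Max-null ESCs Creld2 went from 9.71 to 10.28 and 10.36 under Dox, and in the p110 alpha line from 9.80 to 9.83. LY294002 at day 5 and Dox thus differed for Creld2 by -0.84 ± 0.21 (adjusted p = 0.0497), the 1 member for which this difference passed where 2.68% of 13904 genes were lower. That call held in 4 of 13 alternative settings, and 0 members passed without parental replicate 2 or without either c-Myc line.

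Herpud1 encodes a ubiquitin-like membrane protein that assembles the complex which passes misfolded proteins from the ER to the proteasome. It read 9.87, 9.26 and 9.14 in untreated parental replicate 2, wild-type c-Myc and T58A ESCs. At day 2 these lines read 8.78, 8.61 and 9.33, and at day 5 they read 7.59, 7.02 and 6.88. The T58A line was higher at day 2, and the day 2 samples overlapped the untreated ones. The day 5 samples of all 3 lines lay below every untreated and day 2 sample of these lines, with changes of -2.28, -2.24 and -2.26.

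The day 5 fall of Herpud1 was 4.80-fold (-2.26 ± 0.23, SE, n = 3 lines; limma adjusted p = 0.000360), and it passed in 12 of 12 alternative settings. None of these settings held parental replicate 1. The day 2 change of -0.51 ± 0.23 did not pass (adjusted p = 0.132), although without T58A it was -0.87 (adjusted p = 0.0146). From day 2 to day 5 Herpud1 fell by 1.75 (-1.75 ± 0.23, adjusted p = 0.0231), a call that was lost without wild-type c-Myc (-1.82, adjusted p = 0.278), without T58A (-1.40, adjusted p = 0.118) and in the fit with the Max-null lines (adjusted p = 0.116).

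Day 5 gave another value in the other set of arrays. In parental replicate 1 Herpud1 went from 9.25 to 9.01 at day 5, and in 2i from 8.97 to 9.21. The parental replicates thus had day 5 changes of -0.24 and -2.28, their joint estimate of -1.26 ± 0.49 did not pass (limma adjusted p = 0.237), and replicate and array set cannot be told apart. A second Herpud1 probe set had the same sign in 11 of 11 changes, with -0.21 in parental replicate 1 and -1.57 in replicate 2.

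Herpud1 was also lower in each Dox sample than in its untreated sample. In Max-null ESCs it went from 9.08 to 8.09 at day 4 and 7.17 at day 6, and in p110 alpha Max-null ESCs from 10.38 to 9.87. The untreated p110 alpha line read 1.30 above the untreated Max-null line, the 1 member that differed 2-fold between them where 6.12% of genes did.

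Kdelr3 encodes a receptor that returns proteins ending in the KDEL signal, BiP among them, from the Golgi to the ER. It read 9.59, 9.85 and 9.96 in the untreated lines, 7.41, 8.23 and 8.81 at day 2 and 7.07, 7.39 and 7.80 at day 5. At each day the treated samples lay below all untreated ones, and in each line day 5 was lower than day 2. Kdelr3 fell 3.14-fold by day 2 (-1.65 ± 0.17, SE, n = 3 lines; adjusted p = 0.000836) and 5.20-fold by day 5 (-2.38 ± 0.17; adjusted p = 0.000137). The day 5 fall passed in 12 of 12 alternative settings and the day 2 fall in 11 of 12, with an adjusted p of 0.076 in the fit with the Max-null lines. The difference between the days was -0.73 ± 0.17 and did not pass (adjusted p = 0.0686).

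Parental replicate 1 and 2i had the same direction for Kdelr3. It went from 10.03 to 8.62 in parental replicate 1 and from 9.41 to 8.68 in 2i, where 3.09% and 2.23% of genes were 2-fold lower, and only the former change reached 2-fold. In the 8-sample fit the parental change was -1.97 ± 0.29 (adjusted p = 0.0772) and the c-Myc change -2.31 ± 0.29 (adjusted p = 0.0445).

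Kdelr3 had the largest member change of the series in Max-null ESCs. It read 8.91 untreated, 5.98 at Dox day 4 and 5.91 at day 6, 7.59-fold and 8.00-fold lower, where 8.71% and 15.6% of genes were 2-fold lower. In p110 alpha Max-null ESCs it read 9.02 without and 9.19 with Dox. Both Dox-treated Max-null samples lay below the other 12 arrays of their set.

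Xbp1 encodes the transcription factor of the IRE1 arm. It read 11.62 in untreated parental replicate 2 and 10.30 in both untreated c-Myc lines, 10.53, 10.08 and 10.18 at day 2 and 10.23, 9.88 and 10.21 at day 5. The parental line accounted for most of the change, with -1.10 and -1.39, against -0.23 and -0.43 in wild-type and -0.12 and -0.09 in T58A c-Myc ESCs. The fitted changes of -0.48 ± 0.22 and -0.64 ± 0.22 did not pass (adjusted p = 0.142 and 0.0514), and without T58A the day 5 change was -0.91 (adjusted p = 0.0398). The untreated wild-type and T58A c-Myc lines differed from untreated parental replicate 2 by -1.32 and -1.33, and Xbp1 was the 1 member that differed 2-fold in each, where 0.768% and 1.79% of genes did. These are single arrays per line and were not tested.

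Xbp1 was also lower in the other treated samples. It went from 11.70 to 11.19 in parental replicate 1, from 10.77 to 10.63 in 2i, from 11.65 to 11.30 and 10.60 in Max-null ESCs and from 11.19 to 10.50 in the p110 alpha line. That made it the 1 member below its own untreated sample in 11 of 11 treated samples, although another Xbp1 probe set gave 0.02 and 0.11 for the T58A line at days 2 and 5. Untreated 2i ESCs differed from untreated parental replicate 1 by -0.94 for Xbp1 and by -0.62 for Kdelr3, and 0 members differed 2-fold between these media, where 5.83% of genes did.

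The test of Dox took 5 samples, those of both Max-null lines, and counted days 4 and 6 alike. In limma's test 0 of 13535 genes passed, with 701 at an unadjusted p under 0.05, among them Dnajb9 (0.84 ± 0.34), Herpud1 (-1.05 ± 0.39) and Kdelr3 (-1.62 ± 0.66). Hspa5, Hsp90b1 and Kdelr3 went opposite ways in the 2 lines. Without the p110 alpha line Dnajb9, Herpud1 and Kdelr3 passed, on 3 samples with 1 untreated array among them.

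The difference between the lines under Dox was tested after its values had been seen, in a 14-sample fit with 5 residual degrees of freedom. The spread comes from the 3 LY294002 lines and from Max-null days 4 and 6. The p110 alpha line, with 1 sample per condition and its own Dox term, adds nothing to it. The p-values below thus do not measure the spread of the p110 alpha change. Of 13904 genes 6.28% were higher and 17.4% lower in Max-null than in p110 alpha Max-null ESCs, and 2 members were higher and 1 lower. The change of Kdelr3 in Max-null ESCs differed from that in the p110 alpha line by -3.13 (± 0.38, SE; limma adjusted p = 0.00147), an 8.73-fold difference that passed in 13 of 13 alternative settings. Dnajb9 differed by 1.13 ± 0.26 (adjusted p = 0.0162), a call lost without wild-type c-Myc (adjusted p = 0.0681) or T58A (adjusted p = 0.0568), which enter this fit only through the spread. Hspa5 differed by 0.89 ± 0.25 (adjusted p = 0.0304), a call lost without any 1 of the 3 LY294002 lines (adjusted p = 0.0558 to 0.0905). Hsp90b1 (0.54 ± 0.27, adjusted p = 0.187), Creld2 (0.58 ± 0.24, adjusted p = 0.110) and Herpud1 (-0.93 ± 0.65, adjusted p = 0.324) did not pass.

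Other values moved with Dox in Max-null ESCs. Centring each array on its median shifted every value of this difference by -0.14, Hspa5 to 0.76 (adjusted p = 0.0767), and the Max-null day 6 changes by -0.165. The summed log2 level of 11 primitive and visceral endoderm markers went from 59.9 to 65.1 and 70.7 in Max-null ESCs and from 63.6 to 63.4 in the p110 alpha line. Of these markers 6, 8 and 9 were above the floor in Max-null ESCs, with Gata4 and Sox7 below it in all 3 samples. The sum of 10 fibroblast markers went from 44.3 to 47.5 and 52.9, with Col3a1, Postn and Lum below the floor throughout, and that of 9 trophoblast markers from 54.3 to 56.8 and 63.5, with Elf5 and Gata3 below it. That of 6 neuroectoderm markers went from 36.74 to 35.26 and 36.66. The part of these marker shifts in the chaperone and Kdelr3 changes, and that of the Gapdh 3′ to 5′ difference, was not tested.

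Genes of the same pathway outside the 10 members were counted in 6 lists, of which 80 of 83 genes were measured. Their counts stand against 18.3% of all genes higher and 12.3% lower at day 2, and 25.7% higher and 18.5% lower at day 5. Of 16 ER folding helpers 5 fell and 0 rose at day 2, led by Calr, which encodes the lectin chaperone calreticulin (-0.85 ± 0.11, adjusted p = 0.00189), and the oxidase gene Ero1a (-0.60 ± 0.10). At day 5, 5 fell and 3 rose, with Calr at -0.77 and the isomerase gene P4hb at 0.50. The median of this list was -0.12 at day 2 and -0.0035 at day 5, against 0.04 and 0.05 for all genes. Of 15 genes of ER-associated degradation, the pathway in which Herpud1 acts, 4 rose and 3 fell at day 2, and 6 rose and 4 fell at day 5. Herpud2, a relative of Herpud1, rose by 0.79 ± 0.08 and 1.05 ± 0.08 (adjusted p = 0.000829 and 0.000155), against the fall of Herpud1 at day 5. Derl3 and Derl2, which encode membrane components of that pathway, and Ube2j1, a ubiquitin-conjugating enzyme, were the other rises named by the smallest p.

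The PERK and ATF4 list changed most between the days. Of its 12 genes 0 rose and 4 fell at day 2, and 0 rose and 11 fell at day 5, where 18.5% of all genes fell, with a median of -1.57. In single pairs at day 5, 9 of 12 were 2-fold lower in each of the 3 lines, against 0 of 12 in parental replicate 1 and 0 in 2i, whose medians were -0.13 and 0.04. Atf4 itself fell by 1.27 at day 5 (-1.27 ± 0.13, adjusted p = 0.000347), the stress gene Nupr1 fell by 4.94 and Sesn2 fell by 1.42. From day 2 to day 5, 6 of the 12 fell, with -2.35 for Chac1, -1.93 for Trib3 and -1.93 for Ddit3, the gene for CHOP, the comparison in which Herpud1 was the 1 member to pass. Among 10 sensors and proteases, Eif2ak3, the gene for PERK, fell by 0.51 and 0.72 at days 2 and 5 (adjusted p = 0.0104 and 0.00151), and Atf6 by 0.53 at day 5. In all, 1 rose and 3 fell at each day.

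In the translocation and ER-Golgi list, 1 of 16 rose and 1 fell at day 2 and 2 rose and 2 fell at day 5. Kdelr2, a paralog of Kdelr3, fell by 0.25 and 0.27 (adjusted p = 0.0316 and 0.0164), against -1.65 and -2.38 for Kdelr3. Among 11 cytosolic and mitochondrial heat shock genes 1 rose and 5 fell at day 2 and 2 rose and 4 fell at day 5. The small heat shock gene Hspb1 fell by 0.54 and 0.73, and the HSP70 gene Hspa1b fell by 0.38 at day 2 and rose by 0.46 at day 5.

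Probe sets of 6 members could be compared. Dnajb9, Sdf2l1, Creld2 and Kdelr3 had a single probe set each, so their changes could not be checked in this way. The second Hspa5 probe set had the sign of the first in 10 of 11 changes and the third in 6 of 11, with 0.21 in place of -0.50 for parental replicate 1 at day 5. The Hsp90b1 and Herpud1 pairs had the same sign in 11 of 11. The 3 further Xbp1 probe sets had the same sign in 9, 11 and 8 of 11, and the second probe sets of Pdia4 and Pdia6 were above the floor in 6 and 13 of 18 samples.

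**Figure D5:**
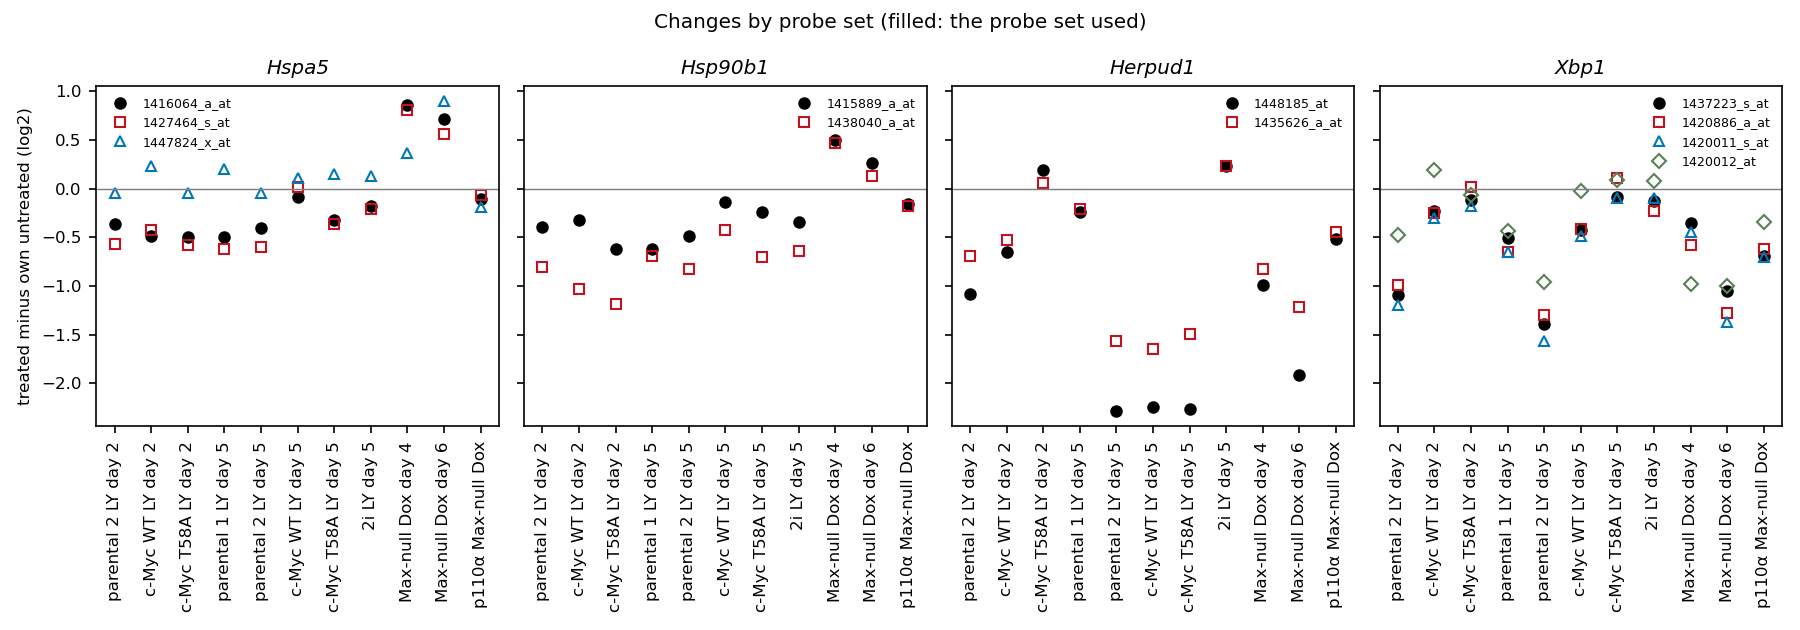
Log2 changes in the 11 treated samples by probe set for Hspa5, Hsp90b1, Herpud1 and Xbp1; filled points are the probe set used in the tests and open points the others, and the vertical axis is log2 treated minus untreated. The second Hsp90b1 probe set reaches -1.18 where the first reaches -0.62, and the third Hspa5 probe set departs from the first.

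The members differed in how closely their changes followed those of Hspa5 across samples. Over the 11 changes, which share 7 untreated samples, Pearson's r with Hspa5 was 0.956 for Hsp90b1, 0.935 for Dnajb9, 0.899 for Creld2, 0.808 for Pdia4 and 0.758 for Pdia6. It was -0.12 for Xbp1, -0.24 for Herpud1, -0.30 for Sdf2l1 and -0.48 for Kdelr3. Among 14066 genes the 4 most like Hspa5 by this measure were Smox, Stard9, Drd3 and Etv3, with r of 0.973 to 0.991. Hsp90b1 ranked at place 22, Dnajb9 at 137, Creld2 at 353, Pdia4 at 1082 and Pdia6 at 1492. The 2 Max-null Dox samples have the 2 highest Hspa5 changes, and r without them was not computed, so these values are a description.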

How the data were processed

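RNA levels of 18 mouse ESC samples were measured on Affymetrix arrays, 1 per sample. The deposited table holds log2 values that the authors made by RMA with the affy package, per the submitters' processing notes, and versions, background settings and which arrays were normalized together are not given in the sources used here. RMA shares probe behaviour between the arrays of a run, so levels were compared only among arrays that appeared to share one.

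Of 45101 probe sets, 34958 named 1 gene, 932 several and 9211 none, and 34754 were matched to a RefSeq gene by identifier. Each of 18194 genes was represented by its probe set of highest average level. A gene entered a fit if 2 or more of its samples exceeded 4.64, the 40th percentile, and all 10 members passed this in every fit. Each treated sample was set against the untreated sample its description names. Tests used limma 3.58.1 (lmFit and eBayes, R 4.3.3), 2-sided, with the line or pair as a block and Benjamini-Hochberg adjustment over all genes of a fit, at a threshold of 0.05. Untested pairs were counted at 2-fold. The scripts were tested on simulated data. The pairing comes from the descriptions. The difference between the parental replicates when untreated correlated with that at day 5 over 13405 genes at r = 0.563, and the difference between the c-Myc lines at 0.172. The parental replicates lie in separate sets of arrays, so an offset between the sets enters both of their differences. The value of 0.563 therefore cannot test the pairing.

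All 10 members were named in every fit, and up to 4 genes of smallest p from each pathway list. Members, lists, motifs and markers were chosen with earlier results of these data known. Alternatives changed the level filter, scaling, probe set, prior, block, samples and number of lines in a fit. The test of Dox between the Max-null lines was added after its values were seen. Promoters were searched in the RefSeq windows with Python 3.11.15.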

Additional observations from a re-analysis of the deposited data

Results flagged for a closer look

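Herpud1 differed between the days of LY294002 in the 3 serum lines by -1.75, tested as the contrast of day 5 and day 2 in limma's fit. Its day 5 change also went opposite ways in 2i medium, at 0.23, and in the parental serum pairs, at -0.24 and -2.28, a difference that was not tested. Under Dox, the Max-null and the p110 alpha Max-null line differed in the changes of Kdelr3 by -3.13, of Dnajb9 by 1.13 and of Hspa5 by 0.89, each by a test of the difference itself. The spread in that test does not come from the p110 alpha line.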

How the results depend on the processing

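Counts are of members that passed, out of 10. No called value changed sign. Of the values of single members under the alternatives, 1297 kept their call and direction, 37 lost the call, 43 gained it and 52 changed sign while uncalled or crossed the 2-fold line. Without the replicate block, the count was 0 for day 5 in the c-Myc lines (1 with it). In 3 lines it was 4 for day 2, 3 for day 5 and 1 between the days. For parental ESCs and for Dox it was 0, for LY294002 against Dox 0 (1) and for Dox between the Max-null lines 7 (3). In that last fit 29.6% of all genes passed, against 23.7% with the block. At day 5 in 3 lines (3) the count was 7 with a filter at the 60th percentile and 5 with quantile normalization. It was 5 with the mean of all probe sets and 7 with a trended, robust prior. Of all genes 54.9%, 45.3%, 44.9% and 45.7% passed in these settings in turn, against 44.1% in the main one. At day 2 (5) the count was 0 in the fit of 14 samples. Between the days (1) it was 2 with the trended, robust prior and 0 in the fit of 14 samples. For LY294002 against Dox (1) it was 0 with no filter, with centred arrays, with quantile normalization and with the most variable probe set. Leaving out 1 line or treated sample gave 0 to 6 for day 5 in parental ESCs, 0 to 3 in c-Myc ESCs and 0 to 2 for their difference, where 2 members passed without parental replicate 2. It gave 1 to 5 for day 2, 2 to 4 for day 5 and 0 to 2 between the days in 3 lines, 0 to 3 for Dox, 0 to 4 for LY294002 against Dox (4 without the p110 alpha line) and 1 to 4 for Dox between the Max-null lines (1 without either c-Myc line). Dox without the Max-null line could not be fitted. Counts of 2-fold changes ranged from 18 to 20 (19). Where a setting leaves fewer samples or takes the spread from more lines, the test itself differs, and for the other settings the cause was not tested. Leaving 1 line out of the 8-sample fit leaves a single pair in a group, and the counts then measure no spread in that group. Counts over all genes also moved by over 1.5 times: day 2 from 4099 to 2663 without the block, 842 in the fit of 14 samples and 1010 without wild-type c-Myc, and day 5 from 5922 to 2514 and 2881 under the last 2 settings. Between the days 315 became 57 without the block, 525 with the 60th percentile, 714 with the trended prior, 876 without parental replicate 2 and 0 without either c-Myc line or in the fit of 14 samples. In the 8-sample fit 71 parental calls became 0 without the block or either c-Myc line, 4711 without parental replicate 1 and 1205 without replicate 2, and 351 c-Myc calls became 44 without the block, 0 without either c-Myc line, 533 and 536 with the 60th percentile and trended prior, and 5503 and 5527 without a parental replicate. For the c-Myc difference 0 became 1337 without parental replicate 2. For Dox 0 became 1430 without the p110 alpha line, 56 without day 4 and 30 in the fit of 14 samples. LY294002 against Dox went from 930 to 403 without the block, 43, 0 and 8 without parental replicate 2, wild-type c-Myc and T58A, and 5579 without the p110 alpha line. Dox between the lines went from 3295 to 2195, 1244 and 1860 without the same 3 lines and 5849 without day 4. The main probe set of each member was above the floor in 18 of 18 samples, and the part of dim probes in these counts was not tested.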

Other observations

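Among the heat shock genes outside the ER, Hspa1a and Hspa1b, which encode the inducible cytosolic HSP70, had larger changes under Dox in Max-null than in p110 alpha Max-null ESCs, by 4.30 ± 0.26 and 2.91 ± 0.21 (limma adjusted p = 8.84e-05 and 0.000207). Hsph1, an HSP110 chaperone, differed by 1.30 ± 0.31 and Hspe1, the mitochondrial cochaperonin, by -1.01 ± 0.24. Of the 11 heat shock genes 3 were higher and 1 lower, where 6.28% and 17.4% of all genes were. In ER-associated degradation Os9, a lectin of that pathway, differed by 2.96 ± 0.28 (adjusted p = 0.000592), Derl3 by 1.56 and Syvn1, the HRD1 ubiquitin ligase, by 0.85, while Ube2j1 differed by -1.37. Of 12 genes of the PERK and ATF4 list 1 passed, Chac1 with -3.19 ± 0.97 (adjusted p = 0.0444), and the median of the list was -1.52 against -0.15 for all genes. This comparison was added after its values were seen, and its spread does not come from the p110 alpha line.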
